A study of Mus musculus with 6 samples.

Results

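The SOCS family (suppressors of cytokine signalling, Socs1 to Socs7) and its relative Cish were followed after silencing of Stat3 in CAFs, cancer-associated fibroblasts kept in primary culture, which are the matrix-making cells of the tumour stroma. Members were taken by gene symbol from the deposited count table. All 8 symbols were found among its 24015, and all 8 passed the filter on low counts, which kept 13284 genes for testing. The CAFs came from mammary tumours of NeuT transgenic mice of BalbC background and were grown in medium with serum. Of 6 samples, 3 received nanoparticles with anti-Stat3 siRNA and 3 received control nanoparticles with control siRNA, all at 1 ug/mL for 72 hours. No untreated cells were among the samples, so both groups carry the nanoparticle treatment, and levels in cells without it were not measured. Poly(A) RNA was sequenced, and levels are given as CPM, which are counts divided by library size after edgeR's TMM correction (trimmed mean of M values). Samples that share a number in the titles varied together around the means of their groups, and each number is called a pair. A test is called unpaired where it used the group alone and paired where the pair entered as a block.

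SOCS proteins are the brake on the JAK-STAT pathway. A cytokine receptor activates its JAK kinases, these phosphorylate STAT transcription factors, and STATs switch on SOCS genes, whose proteins then bind the receptor or the kinase through an SH2 domain and bring in a ubiquitin ligase through the C-terminal SOCS box. SOCS3 is the textbook feedback inhibitor of the IL-6 receptor chain gp130 and is induced by STAT3, SOCS1 restrains interferon signalling and is induced by interferons, and CISH and SOCS2 are induced mainly by STAT5 downstream of growth hormone and related cytokines. SOCS4 to SOCS7 are less tied to cytokine induction and are known for effects on growth factor and insulin signalling.

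Promoter sequences of the members that differ most in known inducer are shown because STAT dimers bind TTCNNNGAA, while interferon regulatory factors bind repeats such as GAAANNGAAA. RefSeq promoters (build GRCm38.p6) matched 4 of the 8 members by symbol, namely Socs1, Socs3, Socs4 and Cish. Each line runs 5′ to 3′ on the gene's strand from 250 bases before the annotated start to 30 bases after it, and capitals mark matches to TTCNNNGAA (Socs3, Cish) or GAAANNGAAA (Socs1).
Socs3, chr11:117969337-117969616, minus strand: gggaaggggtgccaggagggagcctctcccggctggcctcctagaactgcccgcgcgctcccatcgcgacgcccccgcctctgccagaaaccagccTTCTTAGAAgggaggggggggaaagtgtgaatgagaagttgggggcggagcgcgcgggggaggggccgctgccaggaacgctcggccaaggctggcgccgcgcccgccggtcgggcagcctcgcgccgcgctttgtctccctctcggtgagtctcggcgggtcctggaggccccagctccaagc
Socs1, chr16:10785507-10785786, minus strand: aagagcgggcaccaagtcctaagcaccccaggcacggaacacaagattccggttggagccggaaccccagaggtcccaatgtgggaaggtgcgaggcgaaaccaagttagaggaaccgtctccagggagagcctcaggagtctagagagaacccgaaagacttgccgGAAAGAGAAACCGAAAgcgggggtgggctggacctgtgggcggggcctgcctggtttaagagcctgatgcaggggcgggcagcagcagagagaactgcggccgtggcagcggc
Cish, chr9:107296409-107296688, plus strand: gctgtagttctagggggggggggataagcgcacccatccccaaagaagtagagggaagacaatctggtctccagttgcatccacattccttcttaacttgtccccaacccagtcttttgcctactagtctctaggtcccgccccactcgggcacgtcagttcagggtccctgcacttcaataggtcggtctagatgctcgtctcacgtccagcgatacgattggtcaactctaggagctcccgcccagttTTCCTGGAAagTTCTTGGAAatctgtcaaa

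The Socs3 window held 1 match to TTCNNNGAA, TTCTTAGAA, which began 154 bases before the start. The Cish window held 2, TTCCTGGAA and TTCTTGGAA, beginning at bases 1 and 12 after the start. The Socs1 window held 2 overlapping matches to GAAANNGAAA, which began 83 and 77 bases before the start, and none to TTCNNNGAA. The Socs4 window held none of either motif, nor of TTCNNNNGAA, which no member's window held. Both strands of all 300 bases of each promoter (50 after the start) were searched, and TTCNNNGAA reads the same on both strands. Among all 32851 RefSeq mouse promoters of that length, 8.3% held TTCNNNGAA, 6.95% held TTCNNNNGAA and 3.44% held GAAANNGAAA. These matches describe letters, and binding was not measured here.

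Total counts per sample ranged from 12998168 to 18683852. Stat3, the targeted gene, had 34.7, 81.9 and 78.9 CPM in anti-Stat3 samples 1 to 3, against 220, 359 and 405 CPM in control samples 1 to 3. That left 15.8%, 22.8% and 19.5% of the control level in pairs 1, 2 and 3. Fibroblast markers were abundant throughout, with summed levels of 12 genes from 42079 to 77575 CPM after anti-Stat3 siRNA and from 37036 to 105035 CPM with control siRNA. The sum of 19 macrophage markers was 65.5, 1809 and 2920 CPM in anti-Stat3 samples 1 to 3 and 85.3, 1887 and 2535 CPM in the controls, so pairs 2 and 3 carried many macrophage transcripts and pair 1 few. Epithelial or tumour cell markers (16 genes) summed to 165, 545 and 51.6 CPM after anti-Stat3 siRNA and to 170, 536 and 49.2 CPM in the controls, and endothelial markers (10 genes) to at most 43.4 CPM. All 11 T and NK cell markers were under 1 CPM in every sample, and Cd3d, Cd3g, Cd8a and Ncr1 had no count. The cultures were measured in bulk, so fewer cells of a type and less RNA per cell cannot be told apart. Which of these cells the SOCS transcripts came from was not tested.

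Levels of different members were compared per transcript length, as TPM (counts per length, scaled to a common total in each sample). Socs5 and Socs3 led in the controls and Socs5 and Socs2 after anti-Stat3 siRNA. In anti-Stat3 samples the means were 109 ± 23.1 TPM for Socs5, 43.8 ± 31.1 for Socs2, 28.1 ± 16.2 for Socs3, 16.9 ± 15.1 for Socs1, 13.3 ± 4.0 for Socs7, 11.3 ± 3.55 for Socs6, 6.94 ± 3.01 for Socs4 and 6.22 ± 1.27 for Cish (SD, n = 3). Only Socs5 was set apart from its neighbour there, with every sample above every sample of Socs2, and each other pair of neighbours overlapped. In control samples the means were 129 ± 18.1 TPM for Socs5, 116 ± 82.9 for Socs3, 42.9 ± 28.0 for Socs2, 15.6 ± 2.73 for Socs7, 12.3 ± 1.75 for Socs6, 7.72 ± 0.73 for Socs4, 6.22 ± 1.17 for Cish and 5.66 ± 3.08 for Socs1 (SD, n = 3). Among these neighbours only Socs6 and Socs4 did not overlap.

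The family's summed level was 193, 293 and 220 TPM in anti-Stat3 samples 1 to 3 and 251, 387 and 368 TPM in control samples 1 to 3. It was lower after anti-Stat3 siRNA in each pair, though the groups overlapped. Socs3 alone had 13.2, 25.9 and 45.3 TPM in the anti-Stat3 samples, against 30.9, 120 and 197 TPM in the controls. In pairs 2 and 3 the sum thus fell by about as much as Socs3 did, while in pair 1 it fell by more. Socs3 made up 6.84%, 8.83% and 20.6% of the sum in the anti-Stat3 samples, against 12.3%, 31.1% and 53.4% in the controls. Socs1 made up 2.90%, 3.76% and 15.4% in the anti-Stat3 samples, against 1.54%, 1.01% and 2.50% in the controls. Within each pair the share of Socs3 was thus lower and that of Socs1 higher after anti-Stat3 siRNA. The share of Socs5 was higher in each pair, at 58.8%, 44.1% and 38.0% in the anti-Stat3 samples, against 53.4%, 37.2% and 29.6% in the controls. Its own level was lower in each pair, at 113, 129 and 83.7 TPM, against 134, 144 and 109 TPM, so the larger share came with a smaller sum. The shares of Socs6 and Socs7 were also higher in each pair.

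**Figure D1:**
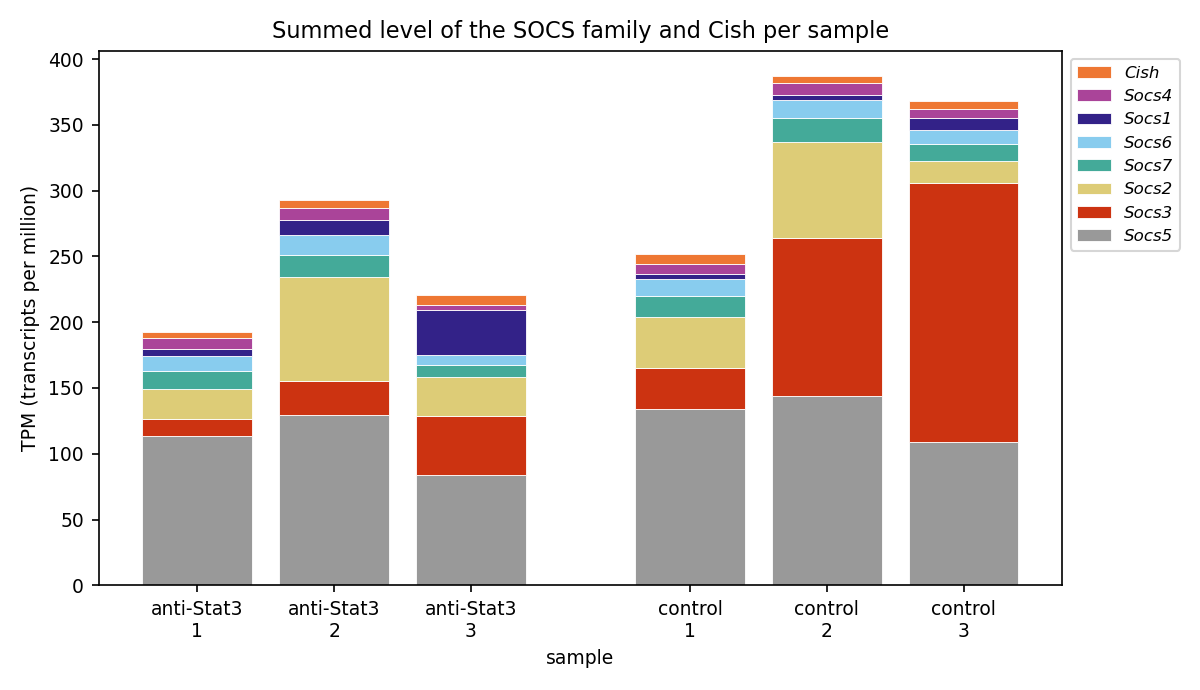
Stacked bars of TPM (counts per transcript length, scaled to a common total) of the 8 members in each of the 6 samples, anti-Stat3 siRNA on the left and control siRNA on the right. Socs5 forms a large block in every bar, and the Socs3 block is the largest one in control sample 3, at 53.4% of the sum, against 20.6% in anti-Stat3 sample 3.

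Socs3 was the member with the clearest change. Its level was 10.9, 18.6 and 38.1 CPM in anti-Stat3 samples 1 to 3, against 25.2, 85.9 and 156 CPM in control samples 1 to 3. Each anti-Stat3 sample was lower than the control of its pair, but the groups overlapped, since anti-Stat3 sample 3 lay above control sample 1. Levels ranged 3.5-fold among the anti-Stat3 samples and 6.20-fold among the controls, and were lowest in pair 1 and highest in pair 3 in both groups. In pair 1 the anti-Stat3 level was 43.3% of the control level (95% interval for counting error alone, 36.0% to 52.0%). In pair 2 it was 21.6% (19.0% to 24.6%) and in pair 3 it was 24.4% (22.2% to 26.9%). The fall in pair 1 was thus the smallest, with an interval apart from those of the other pairs, although Stat3 itself was left at its lowest share there. Counts of Socs3 were between 174 and 2602 per sample, so counting error was small beside the differences between pairs.

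The call for Socs3 rested on the pairing. Unpaired edgeR (the quasi-likelihood test) estimated its log2 change at -1.98 ± 0.74 (SE). The unadjusted p was 0.034, and the p adjusted over all tested genes by the Benjamini-Hochberg method was 1.00. That test called 0 of 13284 genes at an adjusted p of 0.05 (0%), with 235 genes at an unadjusted p under 0.05, and unpaired DESeq2 called 17 (0.128%) and no member. In paired edgeR Socs3 fell, with a log2 change of -1.84 ± 0.19 (SE) and an adjusted p of 0.039. It was 1 of the 5 genes called lower in that fit, 0.0376% of those tested, and the only member among the 8 genes called in either direction (0.0602%). Paired limma-voom gave -1.89 ± 0.18 (SE, adjusted p = 0.029) and also called 8 genes (0.0602%). Paired DESeq2 gave -1.83 ± 0.21 (SE, adjusted p = 3.1e-14) and called 220 genes (1.66%), of which 104 were lower (0.783%). In paired edgeR the call was lost without pair 2 (log2 change -1.65, adjusted p = 0.224) and without pair 3 (-1.73, adjusted p = 0.989), where the test called 3 and 0 genes. In paired DESeq2 it held with each pair left out, with adjusted p at most 5.8e-05. With a pair left out, little spread within a gene remains to be measured. These p therefore rest largely on spread shared across genes, and the fits differ in how they treat it.

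**Figure D2:**
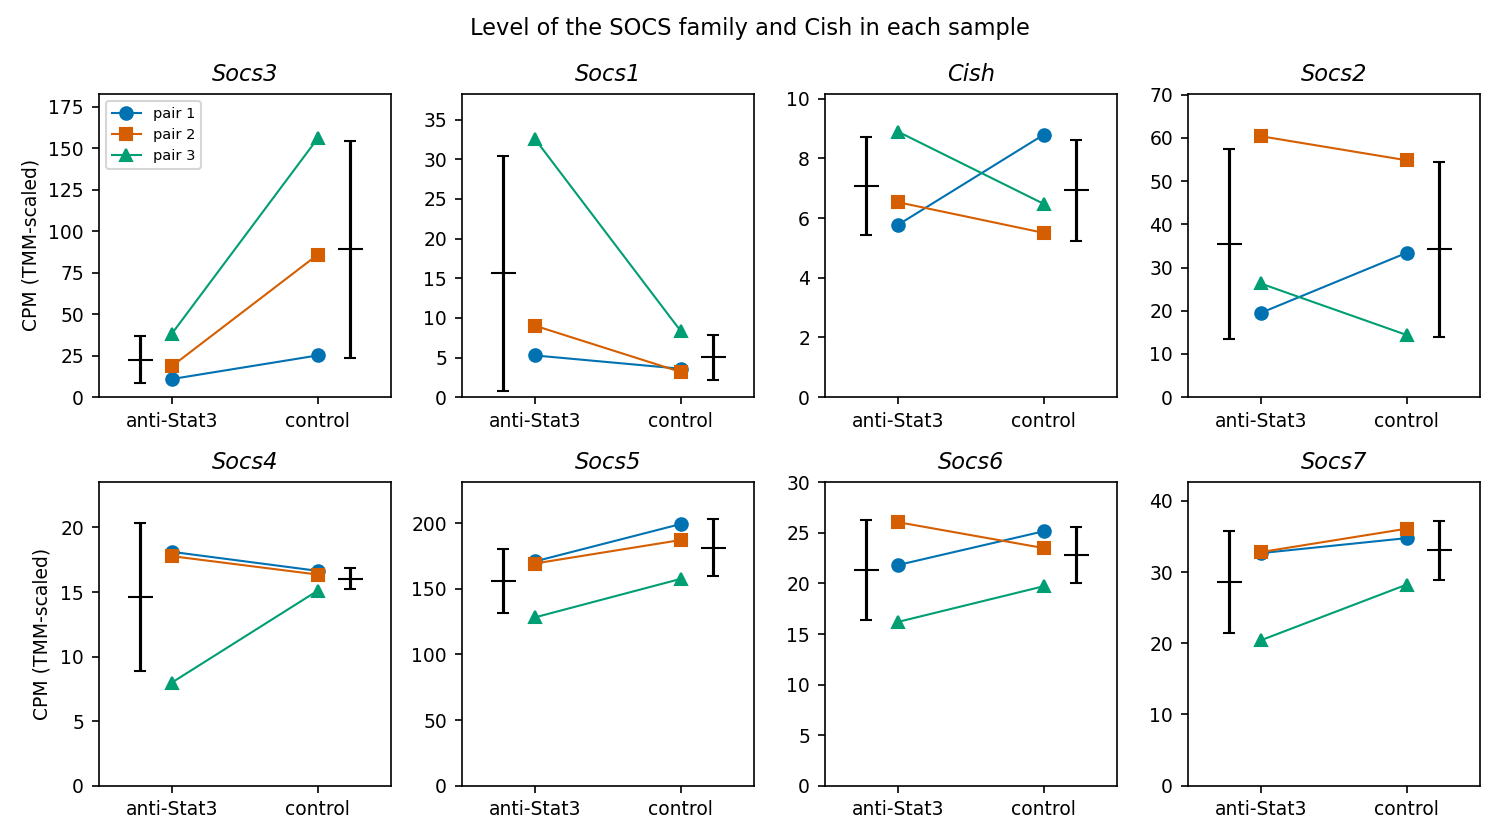
CPM of each member (y axis, from 0, with its own scale in each panel) in anti-Stat3 and control samples, with a line joining the samples of a pair. Black bars give the mean and SD of 3 samples. Socs3 is lower after anti-Stat3 siRNA in all 3 pairs and Socs1 is higher in all 3, while the lines of Socs2 and Cish cross.

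Socs1, the interferon-linked member, was higher after anti-Stat3 siRNA in all 3 pairs, from low control levels. Its level was 5.27, 9.03 and 32.6 CPM in anti-Stat3 samples 1 to 3, against 3.59, 3.18 and 8.33 CPM in the controls. The groups overlapped, because control sample 3 lay above anti-Stat3 sample 1, and anti-Stat3 sample 3 stood far above all others. The fold was 1.47 in pair 1 (95% interval for counting error, 1.03 to 2.11), 2.84 in pair 2 (2.08 to 3.92) and 3.91 in pair 3 (3.22 to 4.77). Pair 1 rests on 84 counts in the anti-Stat3 sample and 53 in the control, so its interval nearly reaches no change. In unpaired edgeR the log2 change was 1.63 ± 0.76 (SE, adjusted p = 1.00). In paired edgeR it was 1.43 ± 0.26 (SE). Socs1 did not pass in paired edgeR (unadjusted p = 7.8e-04, adjusted p = 0.160) or in paired limma-voom (adjusted p = 0.110). Without pair 1 it passed in paired edgeR (1.77, adjusted p = 8.4e-05), in a fit that called 703 genes. It rose by 1.38 ± 0.31 (SE) in paired DESeq2 (adjusted p = 0.0012), a fit that called 116 of all tested genes higher (0.873%). That call was lost without pair 2 (1.30, adjusted p = 0.524) or pair 3 (1.05, adjusted p = 1.00). In unpaired edgeR the change was 0.50 without anti-Stat3 sample 3.

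The ratio of Socs3 to Socs1 counts needs no scaling between libraries, and it separated the groups. There were 2.07, 2.06 and 1.17 Socs3 counts per Socs1 count in anti-Stat3 samples 1 to 3, against 7.02, 27.1 and 18.7 in control samples 1 to 3. Every anti-Stat3 sample was lower than every control. The log2 ratio changed by -1.76, -3.72 and -4.0 in pairs 1, 2 and 3 (mean -3.16 ± 1.22, SD). An exact permutation test over the 6 samples, without pairs, gave a two-sided p of 0.1, the smallest that 3 samples against 3 can give. The ratio was formed after the values of both genes were known, and of 6 ratios of this kind it alone separated the groups. Relative to Socs5, whose level varied little, Socs3 had 0.064, 0.110 and 0.298 counts per Socs5 count after anti-Stat3 siRNA, against 0.126, 0.459 and 0.990 in the controls, and the groups overlapped. Relative to Stat3 itself, the log2 ratio of Socs3 changed by 1.46, -0.08 and 0.33 in pairs 1 to 3, so that in pair 1 Socs3 was lowered less than Stat3 and in pair 2 about as much.

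**Figure D3:**
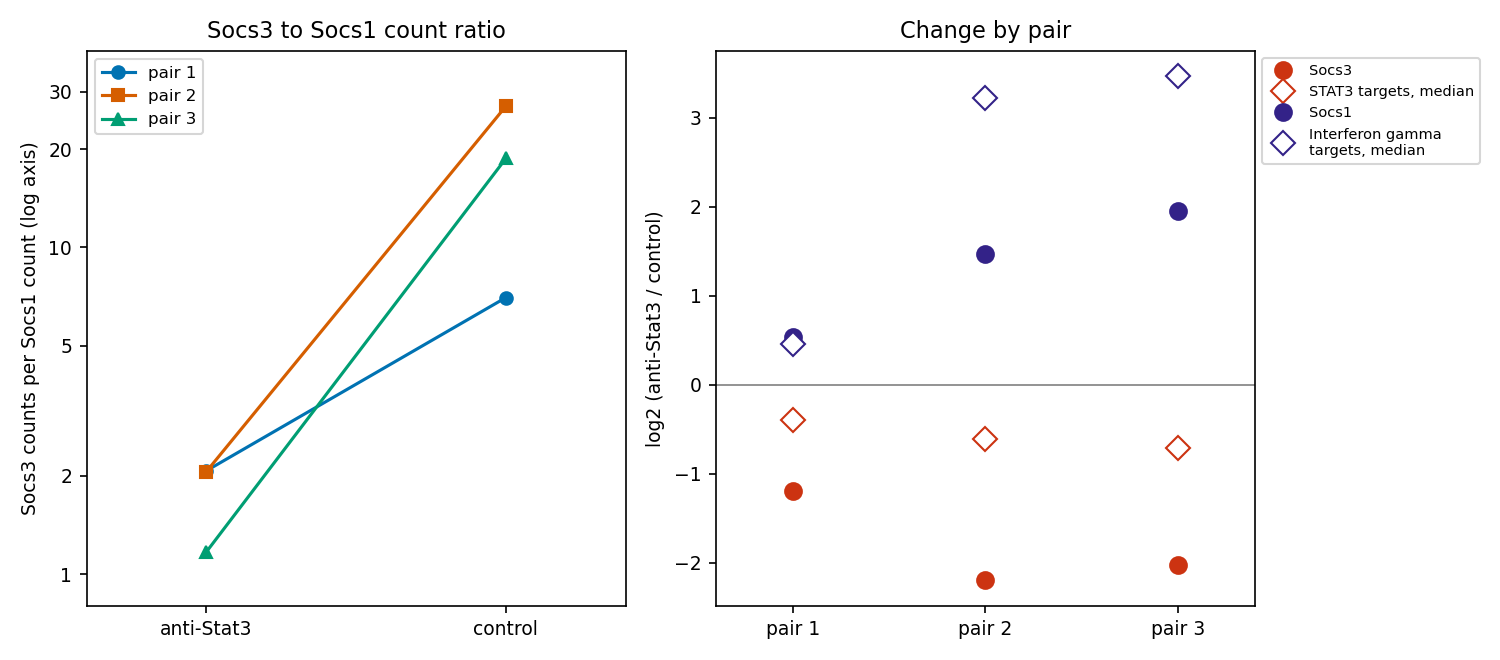
Left, Socs3 counts per Socs1 count (log axis) in anti-Stat3 and control samples, with a line joining each pair. Right, log2 change in each pair of Socs3 and Socs1 (filled) and the median of the 22 tested STAT3 target genes and of the 18 interferon gamma target genes (open). Socs1 and the interferon gamma targets change least in pair 1, with 0.54 for Socs1 and a median of 0.46 for the targets, whose levels were raised in control sample 1 while that of Socs1 was not.

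The remaining STAT-induced members, Cish and Socs2, moved in opposite directions in different pairs. Cish, an inhibitor of STAT5 signalling downstream of receptors such as that for erythropoietin, had 5.77, 6.53 and 8.90 CPM in anti-Stat3 samples 1 to 3, against 8.79, 5.50 and 6.48 CPM in the controls. It was lower in pair 1 and higher in pairs 2 and 3. Its folds were 0.656 (95% counting interval 0.497 to 0.863), 1.19 (0.891 to 1.58) and 1.37 (1.05 to 1.80). It had 92 to 130 counts per sample. Its mean per length was the lowest of the members after anti-Stat3 siRNA (6.22 TPM), though Socs4 was lower in anti-Stat3 sample 3 (3.52 against 7.41 TPM), and in the controls Socs1 averaged less (5.66 against 6.22 TPM for Cish). Paired edgeR gave a log2 change of 0.03 with a 95% interval from -0.51 to 0.57 (adjusted p = 0.973).

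Socs2, the inhibitor of growth hormone receptor signalling, had 19.5, 60.4 and 26.3 CPM in anti-Stat3 samples 1 to 3, against 33.4, 54.8 and 14.4 CPM in the controls. Its level followed the pair more than the siRNA, with a 3.81-fold range among the controls and both samples of pair 2 above all others. Its folds were 0.583 in pair 1 (95% counting interval 0.505 to 0.674), 1.10 in pair 2 (1.01 to 1.21) and 1.83 in pair 3 (1.55 to 2.17). The intervals of the 3 pairs do not meet, so the pairs differed by more than counting error. The paired edgeR change was 0.07 with a 95% interval from -0.56 to 0.70 (adjusted p = 0.948). The Cish and Socs2 changes had the same order over the pairs, negative in pair 1 and largest in pair 3. The difference between pairs could not be tested further, since each pair holds 1 sample of each group.

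**Figure D4:**
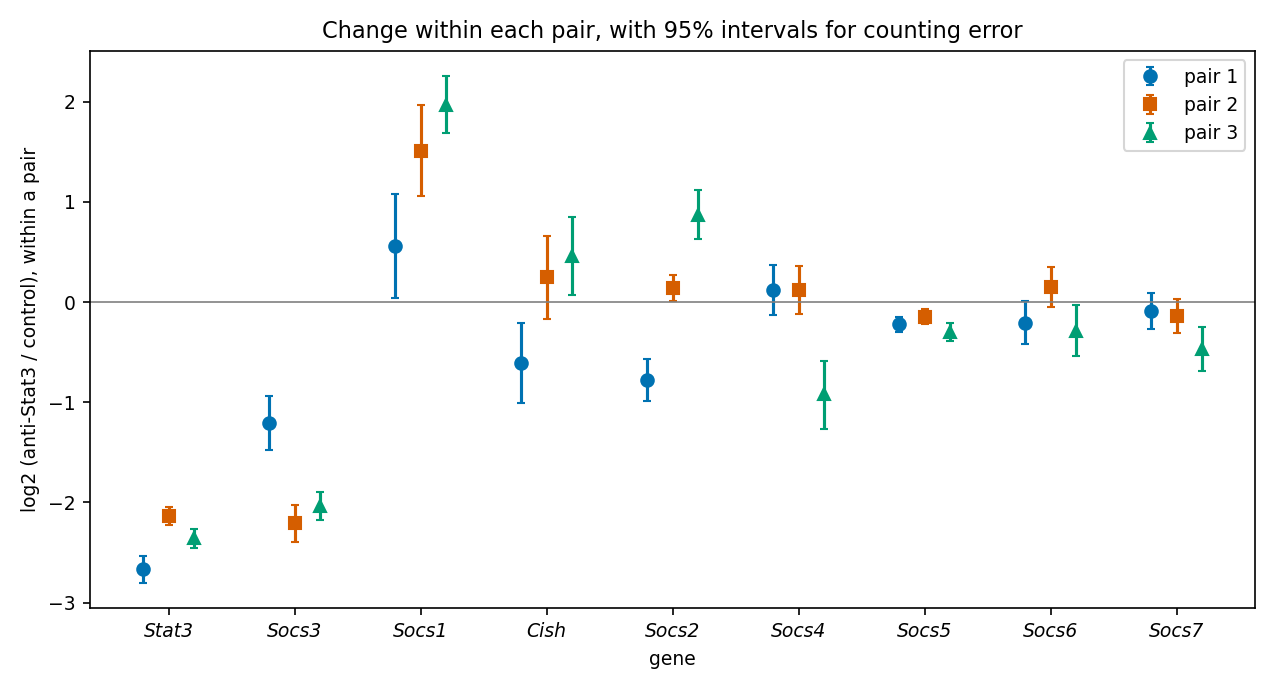
Log2 change (anti-Stat3 over control) within each pair for Stat3 and the 8 members, from scaled counts without a prior count, with 95% intervals for counting error alone. Stat3 and Socs3 lie below 0 and Socs1 above 0 in all 3 pairs, Socs2 spreads from below to above 0, and Socs4 departs from 0 in pair 3.

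Socs5, linked to control of EGF receptor and interleukin 4 signalling, was the most even member. Its level was 171, 169 and 128 CPM in anti-Stat3 samples 1 to 3, against 199, 187 and 158 CPM in the controls. It was lower in all 3 pairs, as were Socs3 and Socs7, so 3 of 8 members were lower and 1, Socs1, was higher in all 3 pairs. Among all tested genes 16.4% were lower and 17.3% higher in all 3 pairs. The Socs5 folds were 0.857, 0.904 and 0.813, and the groups overlapped. Its change of -0.22 ± 0.11 (SE) in paired edgeR had a 95% interval from -0.47 to 0.03 and did not pass (adjusted p = 0.508).

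Socs7, which acts on insulin signalling, had 32.7, 32.8 and 20.4 CPM in anti-Stat3 samples 1 to 3, against 34.8, 36.1 and 28.2 CPM in the controls. Its paired edgeR change was -0.23, with a 95% interval from -0.51 to 0.05 (adjusted p = 0.547). Socs6, which binds the receptor tyrosine kinase Kit, had 21.8, 26.1 and 16.2 CPM after anti-Stat3 siRNA, against 25.2, 23.5 and 19.7 CPM with control siRNA. Its change was -0.11, with an interval from -0.41 to 0.19 (adjusted p = 0.801). Neither gene passed in any fit, and their groups overlapped.

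Socs4, which like Socs5 is linked to EGF receptor turnover, had 18.1, 17.8 and 7.98 CPM in anti-Stat3 samples 1 to 3, against 16.6, 16.4 and 15.1 CPM in the controls. The controls were nearly equal and anti-Stat3 sample 3 was far below the rest. The pair folds were 1.09 (95% counting interval 0.915 to 1.30), 1.09 (0.919 to 1.29) and 0.528 (0.416 to 0.666), so only pair 3 departed from 1 beyond counting error. The paired edgeR change was -0.19, with an interval from -0.69 to 0.30 (adjusted p = 0.785).

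Anti-Stat3 sample 3, the shallowest library at 12998168 counts, held the lowest level of Socs4, Socs5, Socs6 and Socs7 and the highest of Socs1 and Cish. Pair 3 also showed a trend with transcript length across all tested genes. The median log2 change in pair 3 was 0.21 in the shortest of 4 equal classes of transcript length and -0.27 in the longest (over 5.02 kb). The medians of the longest class were -0.02 in pair 1 and 0.02 in pair 2. Socs4 (6.88 kb), Socs6 (6.14 kb) and Socs7 (7.02 kb) belong to the longest class, and their log2 changes in pair 3 were -0.91, -0.28 and -0.47. Socs3 (2.55 kb), Socs1 (2.91 kb) and Socs2 (2.70 kb) belong to the second shortest class, with a median of 0.09 in pair 3. Their log2 changes in pair 3 were -2.03, 1.95 and 0.87. Cish (3.65 kb) and Socs5 (4.65 kb) belong to the next class, with a median of -0.05, and changed by 0.45 and -0.30. The part of length in the pair 3 values of the members was not tested.

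The groups overlapped for all 8 members, while over all tested genes 4.67% had groups that did not overlap. In unpaired edgeR the members had a median log2 change of -0.11, against -0.0028 for all tested genes. In paired DESeq2 1 member fell, 1 rose and 6 did not pass.

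The genes on which SOCS proteins act, and the genes induced beside them, were set next to the members. These lists were not chosen independently of the data. The ubiquitin ligase partners of the SOCS box (elongins B and C, Cul5, Rnf7 and others) all entered the test, 8 of 8, with a median of 0.05 on the log2 scale in unpaired edgeR, and 0 calls in paired edgeR or paired DESeq2. Cul5, the cullin that binds the SOCS box, had 73.7, 85.9 and 57.6 CPM in anti-Stat3 samples 1 to 3, against 79.8, 76.2 and 70.9 CPM in the controls. Of the other SOCS box proteins 16 of 26 were tested, with a median of 0.04 and 0 calls in the same fits.

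Among receptors, adaptors and kinases that SOCS proteins act on, 23 of 26 were tested, with a median of -0.12. In paired DESeq2, where 0.783% of all tested genes were called lower and 0.873% higher, 2 of them fell and 0 rose. Osmr, the oncostatin M receptor chain, which pairs with gp130, had 121, 171 and 202 CPM after anti-Stat3 siRNA, against 180, 348 and 393 CPM in the controls, a change of -0.85 ± 0.15 (SE, DESeq2 adjusted p = 8.0e-06). Jak3, a kinase of common gamma chain receptors, changed by -1.19 ± 0.29 (SE, DESeq2 adjusted p = 0.0046). Neither Osmr nor Jak3 passed in paired edgeR (adjusted p = 0.145 and 0.160). Without pair 1, 4 genes of this list fell in paired edgeR and 3 in paired DESeq2, in fits that called 295 and 158 genes lower. Without pair 2 or pair 3, 0 passed in either. Il6st, which encodes gp130, the docking site of SOCS3, had 268, 422 and 542 CPM in anti-Stat3 samples 1 to 3, against 244, 775 and 1154 CPM in the controls. Its pair changes were 0.13, -0.88 and -1.09, and it did not pass (paired DESeq2 adjusted p = 0.172). Of 12 other JAK-STAT inhibitors, the PIAS proteins and phosphatases among them, 0 passed in paired edgeR or paired DESeq2, with a median of -0.04. Usp18, in this list, had 389, 133 and 129 CPM in anti-Stat3 samples 1 to 3, against 333, 17.3 and 15.1 CPM in the controls. Its pair changes were 0.22, 2.94 and 3.08 (paired DESeq2 adjusted p = 0.213). Without pair 1, 1 of the 12 rose in paired edgeR and in paired DESeq2, which called 408 and 274 genes higher. Without pair 2 or pair 3, 0 passed in either.

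The STAT3 target list without SOCS genes had 22 of 23 members tested and a median of -0.55. In paired DESeq2 11 fell and 0 rose, against 0.783% lower and 0.873% higher among all tested genes, and paired edgeR called 0. Without pair 1, 11 fell and 1 rose in paired edgeR, a fit that called 295 of 13529 genes lower and 408 higher. In paired DESeq2 10 fell and 1 rose without pair 1, where 158 genes were called lower and 274 higher. Without pair 2 or pair 3 paired DESeq2 called 1 lower and paired edgeR called 0. The pair medians were -0.40, -0.61 and -0.71, against -1.20, -2.20 and -2.03 for Socs3. Bcl3, a nuclear regulator of NF-kB, had pair changes of -0.41, -1.45 and -1.26, with the smallest fall in pair 1 as for Socs3. Il4ra, the interleukin 4 receptor chain, had -0.29, -1.56 and -1.42. Timp1, an inhibitor of matrix proteases, had -0.57, -0.54 and -0.47, a similar size in each pair. Cebpd, Pim3, Hif1a, Osmr, Il6, Lbp, Vegfa and Lcn2 were the other genes that fell, each also with its smallest fall in pair 1. That order was thus shared by all the called targets except Timp1, and was not particular to Bcl3 and Socs3.

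The interferon gamma target list had 18 of 18 members tested and a median of 2.10. In paired DESeq2 6 rose, namely Gbp4, Cxcl9, Cxcl10, Psmb9, Nlrc5 and Iigp1, 0 fell and 12 did not pass, and paired edgeR called 0. Among all tested genes 0.873% rose in paired DESeq2. The pair medians were 0.46, 3.23 and 3.47, against 0.54, 1.47 and 1.95 for Socs1. Control sample 1 stood apart in these targets, with 16 of 18 above both other controls and a median level 4.4 times the mean of control samples 2 and 3. B2m, the light chain of MHC class I, had 1728, 1703 and 1621 CPM in anti-Stat3 samples 1 to 3, against 1481, 450 and 460 CPM in the controls. Socs1 was not raised in control sample 1 (3.59 CPM, with 3.18 and 8.33 CPM in the other controls). Its anti-Stat3 level was lowest in pair 1, at 5.27 CPM, against 9.03 and 32.6 CPM in pairs 2 and 3. The similar changes of Socs1 and the targets in pair 1 thus stand on unlike control levels, and their cause was not tested. Without pair 1, 17 of the 18 targets rose in paired edgeR and 16 in paired DESeq2, in fits that called 408 and 274 of 13529 genes higher. Without pair 2 or pair 3 none passed in either. These counts were made after the values were seen. The pairs with the larger changes in Socs1 and in the interferon gamma targets were those with many macrophage transcripts, whose part was not tested. The macrophage markers themselves had 19 of 19 tested, with pair medians of -0.07, 0.01 and 0.24, and 0 passed in paired edgeR or paired DESeq2.

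The STAT5 target list without Cish and Socs2 had 8 of 11 members tested, a median of 0.16 and 0 calls in paired edgeR or paired DESeq2. Pim1, Ccnd1 and Bcl2l1 stand in both this list and the STAT3 target list, and Bcl6 is a gene lowered by STAT5. The list medians therefore do not measure STAT5 activity alone. Its pair medians were -0.13, 0.33 and 0.23, against -0.60, 0.24 and 0.45 for Cish and -0.77, 0.14 and 0.87 for Socs2. Igf1, a growth hormone target, had pair changes of 0.41, 0.19 and 0.49, and Bcl6, a repressor known to fall when STAT5 is active, had -0.24, -0.64 and -0.79. Neither passed (paired DESeq2 adjusted p = 0.286 and 0.078).

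For each member the tested genes with the most similar profile were found as those with the smallest root mean square difference in log2 CPM, each gene centred on its mean over the 6 samples. Socs3 was nearest to Rasl11a (0.34), Rtn4rl2 (0.42) and Jak3 (0.43), with Pearson r of 0.98, 0.95 and 0.97. Socs1 was nearest to Slc14a1 (0.34), Gjb2 (0.35) and C4b (0.35), with r of 0.95, 0.95 and 0.96. The pair changes of C4b, 0.53, 1.44 and 1.64, were close to those of Socs1. Socs2 was nearest to Cd38 (0.23), Cadm4 (0.25) and Cdc14a (0.25), and Cish to Frg1 (0.096), Doc2a (0.099) and Supv3l1 (0.11). The nearest to Socs5 were Gopc (0.020), Acer3 (0.038) and Wdr47 (0.045), and to Socs7 Ncapd3 (0.026), Papolg (0.031) and Ankrd32 (0.040). The nearest to Socs6 were Ammecr1l (0.037) and 2310035C23Rik (0.039), and to Socs4 Cers6 (0.049), Zfp599 (0.052) and Wnk3 (0.072). Pearson r of these genes lay between 0.92 and 1.00. The 6 values share 3 pairs and 1 treatment, and the neighbours were picked from all tested genes whose log2 CPM averaged 1 or more, so these r describe the choice and carry no test.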

How the data were processed

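Per the labels' protocols, poly(A) RNA of the 6 CAF samples was made into TruSeq RNA libraries. Per the submitters' processing notes, TopHat2 2.0.10, HTSeq and build mm9 were used. The authors deposited raw counts per gene symbol, not normalised. All 6 per-sample columns were used. The strand setting and the handling of shared reads are not given in the sources used here. In GENCODE M21 no gene of the table overlaps a member's exons. Columns, which write sh where titles write si, were matched by group and number.

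Counts were tested in R 4.3.3 with edgeR 4.0.16 (quasi-likelihood, TMM, filterByExpr at 10 and 15 counts), unpaired as the main fit, Benjamini-Hochberg threshold 0.05. DESeq2 1.42.0 and limma 3.58.1 were alternatives. Pair changes used log2 CPM with a prior count of 2, and model intervals edgeR's SE (from F) and degrees of freedom. Per-length levels used exon lengths from GENCODE M21 (94.6% of symbols), another build. Fits were tested on simulated data. Counting intervals are exact binomial at 95% and cover counting error only.

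Sample titles number both groups 1 to 3. Deviations from group means correlated at 0.83, 0.82 and 0.83 within numbers and at -0.16 or below otherwise, so numbers were taken as pairs. Centring each group on its mean makes the other values negative on average once those within numbers are positive. The negative values are thus no separate evidence. Spearman correlations of uncentred counts were 0.979, 0.980 and 0.977 within numbers and at most 0.967 otherwise. No source used here says what a number shares, or that replicates were separate cultures or animals, so p-values reflect the spread between samples, which may be technical. Members, lists and tests were chosen with earlier results of these data known. Named were all 8 members, Stat3, list genes called in a fit, and the 3 nearest profiles per tested member, except 1 gene that is not reported here. Cul5, Il6st, Usp18, B2m, Igf1 and Bcl6 were named after their values were seen. Pim1, Ccnd1 and Bcl2l1 were named for their place in both the STAT3 and the STAT5 target list.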

Additional observations from a re-analysis of the deposited data

How the results depend on the processing

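Over 22 alternatives to unpaired edgeR, Socs1, Socs3, Socs5 and Socs7 kept their direction in all. With the pair as a block, 8 genes were called in edgeR, 220 in DESeq2 and 8 in limma-voom, and unpaired DESeq2 called 17. Of the genes in the pathway lists, which held the STAT factors too, 1 was called in paired edgeR and 19 in paired DESeq2, against 0 in unpaired edgeR. The 1 was Stat3, the targeted gene, which was also among the 19. Of all tested genes the paired fits called 0.0602% and 1.66%. Socs3 passed with the block in edgeR (-1.84), DESeq2 (-1.83) and limma-voom (-1.89), and Socs1 in DESeq2 (1.38). The block changed no other member's call. Paired edgeR with other scalings, added after the data were seen, gave -1.84 for Socs3 with RLE or upper-quartile factors, and 8 or 9 calls. Leaving out samples or pairs gave from 0 to 703 called genes, with ranges of -2.60 to -1.30 for Socs3, 0.50 to 2.21 for Socs1, -0.59 to 0.57 for Socs2, -0.39 to 0.16 for Socs4, -0.27 to 0.069 for Socs6 and -0.18 to 0.36 for Cish. Without control sample 1, unpaired edgeR called 40 genes, all higher and no member. Without pair 1, paired edgeR called 703 genes, with Socs1 at 1.77 and Socs3 at -2.12, and paired DESeq2 called 432, with 1.76 and -2.12, and both members passed. Paired DESeq2 called 14 genes without pair 2 (Socs3 -1.64) and 20 without pair 3 (Socs3 -1.71), and paired edgeR called 3 and 0. In unpaired edgeR signs turned without anti-Stat3 sample 3 for Socs4 (0.16), Socs6 (0.069) and Cish (-0.17), without anti-Stat3 sample 2 for Socs2 (-0.59), without control sample 2 for Cish (-0.11), and without control sample 3 for Socs2 (-0.32) and Cish (-0.013). They also turned without pair 3 for Socs2 (-0.30 in paired edgeR and DESeq2), Socs4 (0.12 and 0.13) and Cish (-0.18 in both), and without pair 2 for Cish (-0.076 and -0.077). The cause was not tested. A count of 0 allows up to 0.231 CPM in the shallowest library, far below all members.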
